A study of Drosophila melanogaster with 22 samples.

Results

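Chromatin accessibility was compared by bulk ATAC-seq between hearts of the control strains attp2 (4 libraries) and attp40 (3 libraries), 7 of the 22 libraries of the series. ATAC-seq inserts adapters into open DNA with a transposase, and a peak marks a stretch that was cut more often than its surroundings. Members were chosen by their sample titles. Per the design text, both groups were crosses of Hand-Gal4, a driver active in cardiomyocytes and in the pericardial nephrocytes beside them, to a landing-site strain, both were 1 week old, and neither carried a knockdown. The other groups used here were Hand-Gal4 with LamC RNAi (4 libraries, matched by the study to attp2) and Hand-Gal4 with LamB RNAi (5 libraries, matched to attp40), both at 1 week, and w1118, a white-eyed laboratory strain with no stated driver, at 1 week and at 5 weeks (3 libraries each). Values of w1118 are those at 1 week unless 5 weeks is named. The design text counts 1 library fewer in each knockdown group than the sample labels do, and all labelled libraries were used. No source used here gives the sex. The labels also leave unsaid whether each library was made from its own set of flies; the p-values then only measure how far these libraries scatter, part of which may be technical. All attp2 files carry dates in May, attp40 replicates 1 and 2 in July and attp40 replicate 3 in February. What the dates mark is not given, and strain and date cannot be told apart.

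Landing sites are fixed points in the fly genome at which an integrase inserts transgenes, so that constructs made in the same way sit in the same chromatin. attP2 lies on the left arm of chromosome 3 at Mocs1, a gene of molybdenum cofactor synthesis, and attP40 on the left arm of chromosome 2 in Msp300, the gene of a giant nesprin that ties muscle nuclei to the cytoskeleton. The empty strains serve as controls for RNAi lines inserted at the same site, and a stock kept apart from others can differ from them at many places besides its landing site.

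The authors' lists held 9375, 10814, 11602 and 9673 peaks in attp2 and 9711, 9448 and 8491 in attp40. Each list was cut to its 8491 strongest peaks and the lists were merged, which gave 8558 regions, each holding a peak in 3 or more of the 7. The value of a region in a library is a rank score, from 1 for the strongest peak of the library to 0 for no peak among the 8491 strongest. A peak is called present or absent within these 8491 unless the deposited lists are named. It measures a place in the order of peaks, not an amount of open DNA, and the sequencing depth is unknown. Of 5 measures of the libraries, among them the number of peaks and the bases covered, none passed adjustment (exact permutation tests over 35 splits, two-sided, lowest adjusted p = 0.286). The median peak width was 372 to 470 bp in attp2 and 428 to 507 bp in attp40 (exact permutation p = 0.114).

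A peak was present in all 7 libraries in 6119 of the 8558 regions (71.5%). The median difference in score, attp2 minus attp40, was -0.00575, which equal list lengths and ranks hold near 0 by construction. Scores correlated across regions (Pearson) at 0.867 to 0.921 within attp2, 0.871 to 0.914 within attp40 and 0.831 to 0.903 between the strains. The Jaccard index of the bases covered was 0.716 within strains and 0.702 between them, a difference of 0.0136 (exact permutation test, one-sided, p = 0.114). Among the marker genes of cardiomyocytes, Hand, Mhc, H15 and mid had peaks in all 7 libraries. The gene tin had no region among the 8558, which leaves out peaks in fewer than 3 libraries and those below the cut.

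In the fit across all regions (limma, Benjamini-Hochberg adjustment, threshold 0.05), 2 regions passed (0.0234% of those tested), 1 higher in attp2 (0.0117%) and 1 higher in attp40 (0.0117%), and 804 had an unadjusted p under 0.05 (9.39%). A difference of over 0.2 in score was seen in 382 regions (4.46%), of which 155 were higher in attp2 and 227 higher in attp40. In 819 regions (9.57%) the scores of the strains did not overlap, with every attp2 library above every attp40 library in 308 (3.6%) and the reverse in 511 (5.97%). These counts rest on the cut lists, and the part of the cut in their balance between the directions was not tested. When the spread was estimated from all 22 libraries instead, 11 regions passed (0.129%), 4 higher in attp2 (0.0467%) and 7 higher in attp40 (0.0818%).

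**Figure D1:**
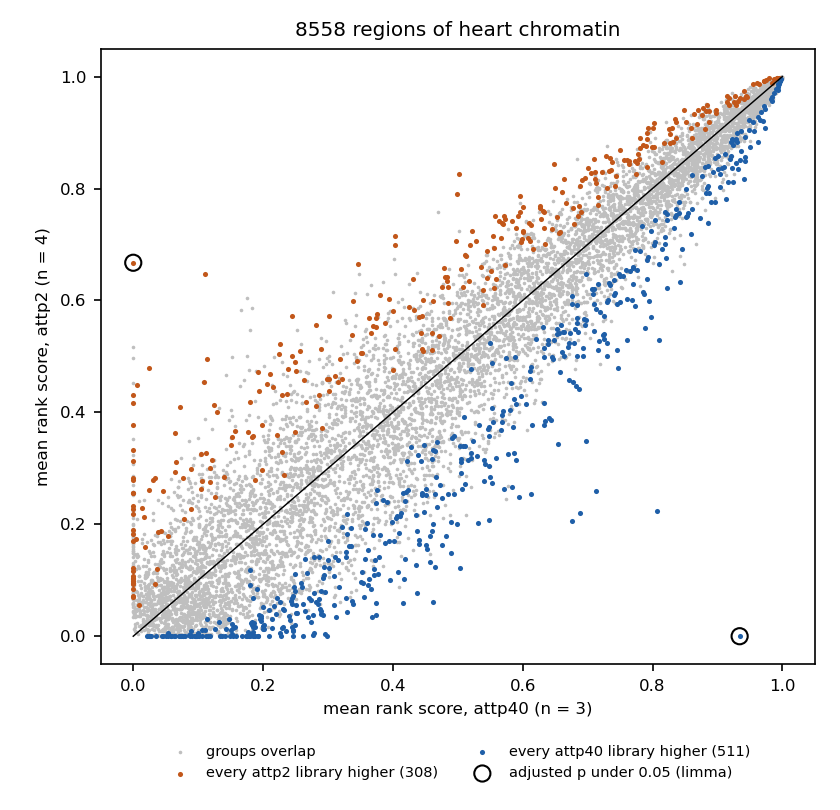
Mean rank score of each of the 8558 regions in attp40 (x axis, 3 libraries) and attp2 (y axis, 4 libraries), from 0 (no peak) to 1 (strongest peak). Most regions lie along the diagonal; coloured points are the 308 and 511 regions whose groups do not overlap, and black circles mark the 2 regions that passed the test.

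The region called higher in attp2 lay 940 bp from an end of CG31808, a gene of unknown function (2L, 16703177 to 16703346, dm6, 170 bp). It scored 0.769, 0.685, 0.628 and 0.587 in the attp2 libraries and 0 in the 3 attp40 libraries, whose deposited lists held no peak there at all. Every attp2 library was therefore high and the groups were far apart, by 0.667 ± 0.082 (SE; limma adjusted p = 0.0122). The authors' fold enrichment over local background at its peaks was 9.69, 11.0, 9.33 and 8.40 in attp2. The call was lost on leaving out attp2 replicate 2 or 3 or any attp40 library (adjusted p = 0.059 to 0.161). The peak was present in 1 of 4 LamC RNAi libraries (score 0.606), in 0 of 5 LamB RNAi libraries, in 2 of 3 w1118 libraries at 1 week (0.485 and 0.319) and in 3 of 3 at 5 weeks (0.530, 0.474 and 0.398).

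The region called higher in attp40 lay on a short scaffold not placed on any chromosome (positions 1291 to 2359, 1069 bp), with no protein-coding gene in the gene table. It scored 0.929, 0.967 and 0.906 in attp40 and 0 in all 4 attp2 libraries, again with no deposited peak in any of them. The difference was -0.934 ± 0.076 (SE; limma adjusted p = 0.000302), the largest of the 8558, and the authors' fold enrichment was 15.7, 14.9 and 15.4 in attp40. The scaffold peak was among the strongest of every knockdown library, at 0.996 ± 0.004 (SD, n = 4) with LamC RNAi and 0.981 ± 0.006 (SD, n = 5) with LamB RNAi, while w1118 scored 0.230, 0 and 0.003 at 1 week and 0.253, 0.367 and 0 at 5 weeks. The LamC RNAi hearts thus carried a peak that their matched attp2 control lacked, and the strain difference of the controls was not seen between the knockdown groups. The difference of the controls minus that of the knockdown groups was -0.949 ± 0.042 (SE; limma adjusted p = 2.03e-11). No source used here says how the authors treated reads that map to several places.

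Because only 2 regions passed, the 12 regions with the lowest p in each direction among those whose groups do not overlap were described, of which 11 in each direction did not pass (adjusted p up to 0.247 and 0.197). At 7 of the 12 that were higher in attp2, at most 1 attp40 library had a peak, and none of them scored over 0.331. These included the shared end of Rpt4, a subunit of the proteasome's regulatory particle, and mldr, whose product processes mitochondrial tRNA (X, 6291189 to 6291535). That region scored 0.748, 0.719, 0.582 and 0.539 in attp2 against 0, 0.331 and 0 in attp40 (adjusted p = 0.137). The ends of Creld, of CG16787 and of Naa40, which acetylates histone tails, had scores of 0.231 to 0.591 in the attp2 libraries and 0 in every attp40 library. All 4 were short, at 347, 275, 160 and 276 bp, and none passed with all 22 libraries (adjusted p = 0.0613 to 0.302).

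Others of the 12 were open in both strains and shifted in rank. Lerp, which sorts lysosomal enzymes, scored 0.746, 0.788, 0.826 and 0.797 in attp2 and 0.406, 0.559 and 0.532 in attp40 at the end it shares with IntS12 (adjusted p = 0.137). The shared end of Pi3K68D, a class II phosphoinositide kinase, and twy had means of 0.916 ± 0.028 and 0.802 ± 0.042 (SD; adjusted p = 0.197). The narrowest spread was at ssp3, with 0.905 to 0.926 in attp2 against 0.831 to 0.841 in attp40 (adjusted p = 0.189). For all 3 the groups, separate by the rule of selection, differed by a shift in rank of a peak that every library had. None of the 3 passed with all 22 libraries (adjusted p = 0.146 to 0.202).

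Among the 12 regions higher in attp40, Btk, a Tec-family tyrosine kinase, had a gene-body peak (2L, 8277464 to 8278232) at 0.718, 0.633 and 0.786 in attp40 and 0.103, 0.255, 0.271 and 0.409 in attp2 (adjusted p = 0.171, and 0.0389 with all 22 libraries). The region between CG12224 and CG3397 scored 0.662, 0.666 and 0.698 in attp40 and 0.171 to 0.234 in attp2 (adjusted p = 0.101, and 0.00221 with all 22 libraries). Cyp18a1, whose product inactivates the moulting hormone ecdysone, scored 0.341, 0.404 and 0.378 in attp40 against 0.031, 0, 0.096 and 0.024 in attp2 (adjusted p = 0.137, and 0.0389 with all 22 libraries). In each of these regions every attp40 library lay above every attp2 library, as the selection required. CG10962 had a peak in all 3 attp40 libraries, at 0.291 to 0.315, and scored 0 in every attp2 library (adjusted p = 0.137, and 0.00685 with all 22 libraries). Desat1, a fatty acid desaturase, scored 0.311, 0.311 and 0.212 in attp40, and 0.024 in 1 attp2 library and 0 in the others (adjusted p = 0.197, and 0.0979 with all 22 libraries). Gyc76C, a receptor guanylate cyclase, overlaps CG42637 at a region with means of 0.914 ± 0.010 in attp40 and 0.781 ± 0.031 in attp2 (SD; adjusted p = 0.137, and 0.0857 with all 22 libraries).

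**Figure D2:**
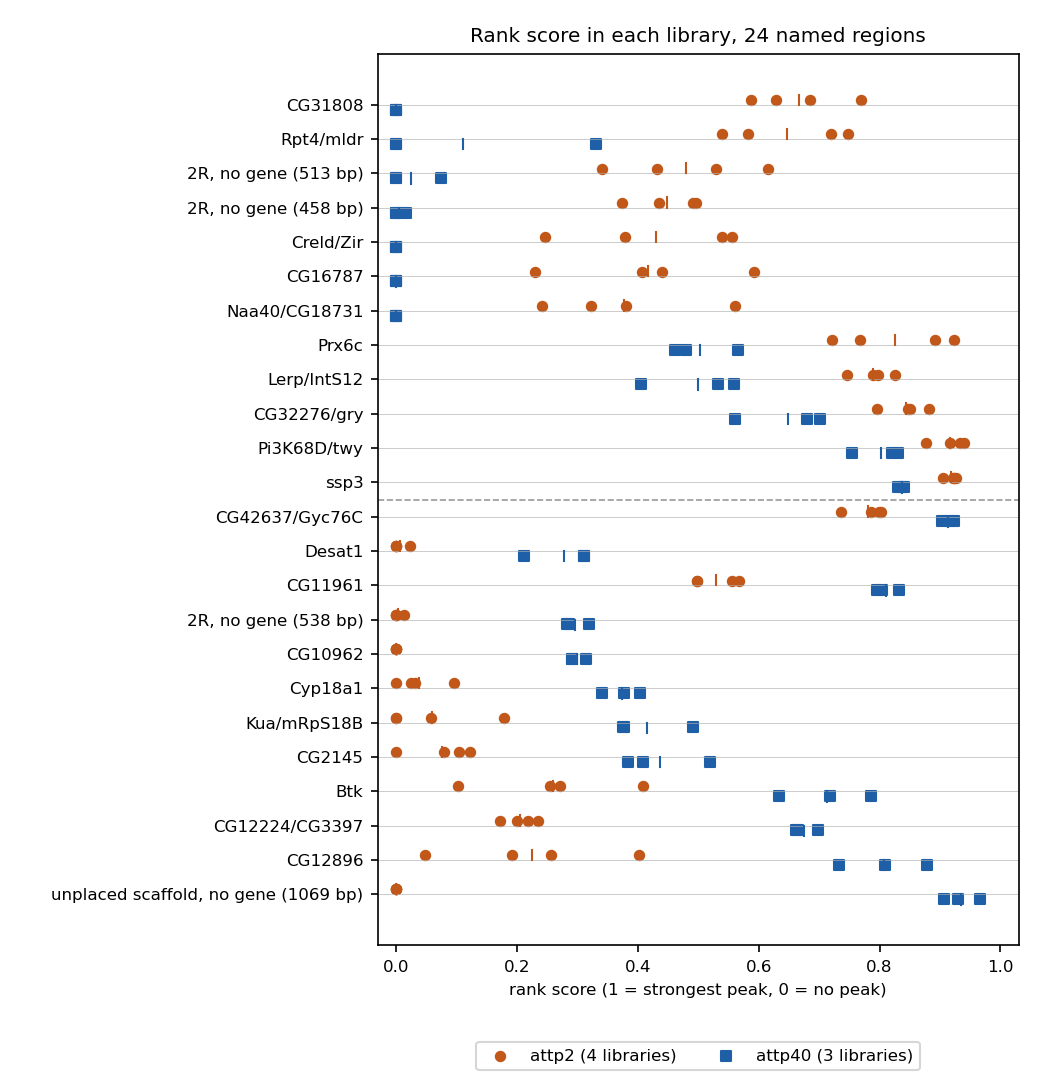
Rank score (x axis, 1 for the strongest peak and 0 for no peak) in every attp2 and attp40 library for the 12 regions with the lowest p in each direction among those whose groups do not overlap; short bars are group means and the dashed line parts the directions. CG31808 and the unplaced scaffold are the 2 regions that passed the test, and in the other 22 the groups are apart but adjusted p is 0.101 or more.

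The lengths of the named regions and of those with a large difference were unlike in the 2 directions. The 12 that were higher in attp2 had a median length of 485.5 bp, and 5 of them were shorter than 400 bp, while the 12 that were higher in attp40 had a median of 840 bp and 1 was shorter. All 8558 regions had a median of 673 bp, and 18.7% were shorter than 400 bp. Among the regions with a difference of over 0.2, 69 of 155 that were higher in attp2 were shorter than 400 bp (44.5%) and 41 of 227 that were higher in attp40. Over all regions whose groups did not overlap the lengths were nearer to the background, with 60 of 308 shorter than 400 bp among those higher in attp2 (19.5%, median 624.5 bp) and 67 of 511 among those higher in attp40 (median 718 bp). The median peak width of a library averaged 407 ± 44.4 bp in attp2 (SD, n = 4) against 475 ± 41.6 bp in attp40 (SD, n = 3). The libraries of the strains overlapped in it, and the difference did not pass (exact permutation test, adjusted p = 0.286). The part of peak width in these differences was not tested.

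A pair of peroxiredoxin genes stood 9.27 kb apart and differed in opposite directions. Peroxiredoxins break down peroxides, and the cluster on 2R holds Prx6c, Prx6b and CG12896, which the gene table lists under the synonym Prx12896. The end of Prx6c (10418071 to 10418716) scored 0.923, 0.891, 0.767 and 0.721 in attp2 and 0.461, 0.481 and 0.566 in attp40 (difference 0.323 ± 0.058, SE; adjusted p = 0.137, and 0.156 with all 22 libraries). The end of CG12896 (10427985 to 10429134) scored 0.048, 0.191, 0.256 and 0.402 in attp2 and 0.732, 0.809 and 0.879 in attp40 (difference -0.583 ± 0.094, SE; adjusted p = 0.101, and 0.00263 with all 22 libraries). The groups did not overlap at either gene, which the selection of the named regions required. Of the 2 regions between them, that at CG33474 scored 0.699 in attp2 and 0.698 in attp40, and that at CG11825 0.647 and 0.749, where the groups did not overlap either (adjusted p = 0.545). The next region beyond, at RanBPM, scored 0.944 and 0.945, so the 2 largest of the 5 differences were at the outer peroxiredoxin genes. These genes are close copies, between which reads can be split, and the cluster was singled out after its values were seen.

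The study matched LamC RNAi to attp2 and LamB RNAi to attp40, and the knockdown libraries share no library with the controls, so differences that recurred between them can be counted. The labels do not give the landing site or stock of the RNAi lines, and at the unplaced scaffold LamC RNAi had a peak that attp2 lacked, so a background shared with the matched control is not established. The knockdown groups also differ in the gene knocked down and in the dates of their files, May for LamC RNAi and July for LamB RNAi, which cannot be told apart from strain. Over all 8558 regions, 59.1% differed in the same direction in the knockdown libraries (LamC RNAi minus LamB RNAi) as in the controls. Of the 819 regions whose control groups did not overlap, 589 did (71.9%), of the 24 lowest in p 17 did, and of the 2 that passed 1 did. In the 24, 11 of the 12 that were higher in attp40 and 6 of the 12 that were higher in attp2 kept their direction, but over the 819 the directions were near each other, at 362 of 511 (70.8%) and 227 of 308 (73.7%).

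A fit of the knockdown libraries alone called 37 regions (0.432%), 19 higher with LamC RNAi (0.222%) and 18 higher with LamB RNAi (0.21%). Of the 37, 26 differed in the same direction in the controls (70.3%, against 59.1% of all regions), and in 10 the control groups did not overlap (27.0%, against 9.57% of all regions), all 10 in the same direction. Of these, 4 were higher in attp2 and LamC RNAi. A pair of neighbouring regions on 2R, more than 27 kb from the nearest gene end, gave the clearest case. The first (4270605 to 4271117) scored 0.432, 0.529, 0.341 and 0.615 in attp2 and 0, 0.075 and 0 in attp40, and again 0.484, 0.446, 0.643 and 0.374 with LamC RNAi and 0 in all 5 LamB RNAi libraries. The second (4271623 to 4272048) scored 0.145, 0.353, 0.270 and 0.258 in attp2 and 0 in attp40, and 0.286 to 0.428 with LamC RNAi and 0 with LamB RNAi. All 8 libraries of attp2 and LamC RNAi thus had both peaks, and among the 8 of attp40 and LamB RNAi 1 had the first, weakly. In w1118 the means of the pair were 0 and 0.017 at 1 week but 0.199 and 0.159 at 5 weeks, so the peaks were not private to attp2 and LamC RNAi. For the first region adjusted p was 0.137 in the controls, 0.0115 in the knockdown libraries and 0.00175 with all 22 libraries; for the second it was 0.275, 0.0115 and 0.0857.

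The other 2 that were higher in attp2 and LamC RNAi lay in CG11030 and at the end of CG33462. The peak in CG11030 was in 4 of 4 attp2 and 4 of 4 LamC RNAi libraries and in no library of attp40 or LamB RNAi, but it was weak, with means of 0.122 ± 0.144 (SD, n = 4) in attp2 and 0.141 ± 0.032 (SD, n = 4) with LamC RNAi, and w1118 had it too, at 0.283 ± 0.147 (SD, n = 3) at 1 week and a mean of 0.011 at 5 weeks. CG11030 and the second region on 2R were the only 2 regions with a peak in all 8 libraries of a control and its matched knockdown and in none of the other 8, and both were higher in attp2 and LamC RNAi. The remaining 6 were higher in attp40 and LamB RNAi. They included an end of Dys, which encodes dystrophin, the link between cytoskeleton and matrix (0.797 in attp40 against 0.570 in attp2, and 0.800 with LamB RNAi against 0.600 with LamC RNAi), and the body of if, which encodes an integrin alpha subunit (0.294 against 0.109, and 0.232 against 0.007). A region in the body of Dys (3R, 19568868 to 19569252), also singled out after its values were seen, went the other way. It was not called between the knockdown groups (0.709 with LamC RNAi against 0.589 with LamB RNAi, adjusted p = 0.47), and in the controls it scored 0.751 in attp2 and 0.557 in attp40 without overlap (adjusted p = 0.269, against 0.307 for the end of Dys). Eip74EF, an ecdysone-induced ETS factor, scored 0.924 against 0.812, and 0.922 against 0.717. The others were Snoo, a Ski-family repressor, Synd, a syndapin that bends membranes, and Cht6, a chitinase. None of these 6 passed in the controls alone (adjusted p = 0.297 to 0.508).

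Differences of the controls that turned round in the knockdown libraries were also seen. Prx6c was higher in attp2 than in attp40 by 0.323, but lower with LamC RNAi than with LamB RNAi, at 0.152 against 0.484, and all 3 w1118 libraries at 1 week scored 0. The difference of the controls minus that of the knockdown groups was 0.654 ± 0.131 (SE) and did not pass (limma adjusted p = 0.112). Of the 8558 regions, 2 passed that test (0.0234%): the unplaced scaffold and a region on 2R with no gene within 5 kb (21848229 to 21848686). That region scored 0.491, 0.374, 0.436 and 0.496 in attp2 and 0.016, 0 and 0 in attp40. It was open in all the knockdown libraries, with means of 0.504 for LamC RNAi and 0.613 for LamB RNAi, and higher still in w1118, at 0.878. The difference of the controls minus that of the knockdown groups was 0.553 ± 0.093 (SE; limma adjusted p = 0.0427), and attp40 was the group that stood apart from the others.

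**Figure D3:**
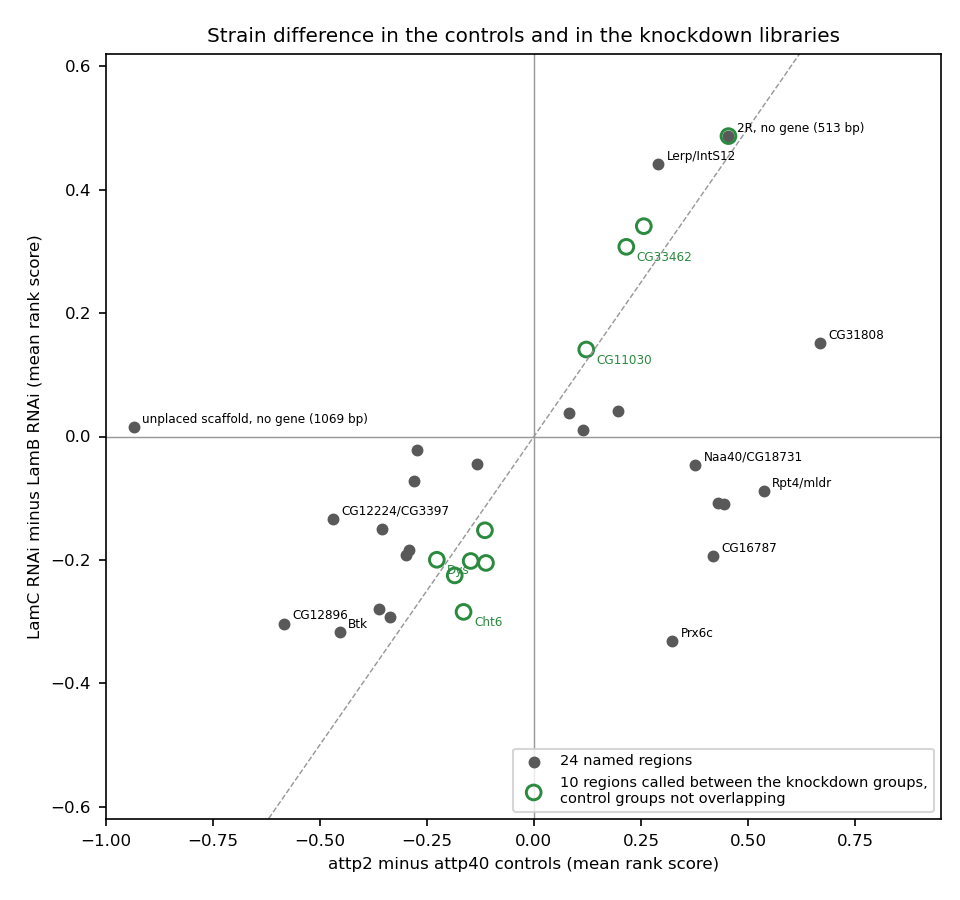
Difference in mean rank score between the control strains (x axis, attp2 minus attp40) and between the knockdown groups matched to them (y axis, LamC RNAi minus LamB RNAi) for the 24 named regions (dots) and the 10 regions called between the knockdown groups whose control groups do not overlap (circles); the dashed line marks equal differences. All 10 circles have the same sign on both axes, as have 11 of the 12 named regions that were higher in attp40 and 6 of the 12 higher in attp2; over all 819 regions whose control groups do not overlap the shares are 70.8% and 73.7%.

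A peak in every library of one strain and in none of the other was found at 27 regions for attp2 (0.315%) and 51 for attp40 (0.596%). The balance depended on the cut of the lists, since with all deposited peaks the counts were 57 and 16. With 4 against 3 libraries, such a region has a Fisher's exact p of 0.0286, the smallest the design allows, and none could pass adjustment over all regions. At 16 of the 27 and 7 of the 51, the deposited lists of the other strain held no peak at any rank; at the rest a weaker one lay below the 8491 strongest. With the cut lists, the X chromosome held 19 of the 51 that were exclusive to attp40 and 1 of the 27 that were exclusive to attp2, against 1553 of all 8558 regions. Beyond the ones above, the strongest in attp2 were at Cyp6g1 (0.333 ± 0.145, SD, n = 4), a P450 gene known for resistance to insecticides, and in Pka-R1 (0.312 ± 0.151), a regulatory subunit of protein kinase A. In attp40 they were in Dyb (0.262 ± 0.116, SD, n = 3), which encodes the dystrophin partner dystrobrevin, and in px (0.246 ± 0.030), a gene of wing vein patterning, CG12116 (0.227 ± 0.049) and CG14441 (0.210 ± 0.086). Most of these peaks were not private to a strain. Of the 27, 24 had a peak in at least 1 w1118 library at 1 week and 19 in a LamB RNAi library, and of the 51, 28 and 39 in w1118 and in a LamC RNAi library.

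Around the landing sites themselves the difference in mean score was within the spread of the libraries. Within 100 kb of Msp300 (2L, 5100877 to 5207002), the host of attP40, 36 regions had a mean score of 0.483 ± 0.014 (SD, n = 4) in attp2 and 0.490 ± 0.026 (SD, n = 3) in attp40 (exact permutation test, two-sided, p = 0.686). None passed the test (lowest adjusted p = 0.382), and 2 had groups that did not overlap (5.56%, against 9.57% of all regions). These were an end of vri, a clock gene, higher in attp2 at 0.444 against 0.216, and the body of Rtnl1, a reticulon of the endoplasmic reticulum, higher in attp40 at 0.495 against 0.253. Msp300 itself held 6 regions, whose groups overlapped in all 6. The strongest of them (5107567 to 5108690) scored 0.896, 0.964, 0.943 and 0.968 in attp2 and 0.951, 0.873 and 0.911 in attp40, and w1118 scored 0.964 ± 0.006 (SD, n = 3). The next (5145139 to 5146674) scored 0.677 ± 0.048 in attp2 and 0.767 ± 0.067 in attp40 (SD; adjusted p = 0.561), the third (5152349 to 5153951) 0.524 ± 0.061 and 0.478 ± 0.077 (adjusted p = 0.89), and the other 3 were weak in both strains, with means from 0.027 to 0.180.

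Within 100 kb of Mocs1 (3L, 11070526 to 11073348), the site of attP2, 27 regions had a mean of 0.424 ± 0.026 (SD, n = 4) in attp2 and 0.421 ± 0.033 (SD, n = 3) in attp40 (exact permutation test, two-sided, p = 0.8). None passed (lowest adjusted p = 0.275), and the groups did not overlap in 4 of the 27 (14.8%, against 9.57% of all regions), 2 in each direction. The largest difference was at a short region in the body of CG43693 (11047988 to 11048147, 160 bp), where the groups overlapped; it was singled out after its values were seen. It scored 0.781, 0.666, 0.539 and 0 in attp2 and 0 in all 3 attp40 libraries, a difference of 0.497 ± 0.150 (SE; limma adjusted p = 0.319). The region passed when attp2 replicate 4, which held no deposited peak there, was left out (0.662 ± 0.092, SE; adjusted p = 0.0408). A peak was there in 3 of 4 LamC RNAi and 5 of 5 LamB RNAi libraries, with means of 0.347 and 0.350. Of the 4 without overlap, 1 was the region at the ends of Mocs1 and CG6310 (11069695 to 11070951), the only one in the span of Mocs1. It scored 0.784, 0.881, 0.820 and 0.732 in attp2 and 0.708, 0.650 and 0.709 in attp40, so the groups were apart by a narrow gap. The difference was 0.115 ± 0.041 (SE) and did not pass (limma adjusted p = 0.382). LamC RNAi and LamB RNAi were alike there in their means, at 0.745 and 0.750, and w1118 scored 0.704. The others were a second, weak peak in CG43693, a region in the body of klu, a zinc finger gene, and the end of CG32069. The CG43693 peak scored 0.072 ± 0.043 (SD) in attp2 and 0 in attp40. In attp40 replicate 2 a deposited peak lay there, below the 8491 strongest. The klu region scored 0.226 in attp40 against 0.006 in attp2 (limma adjusted p = 0.275). The end of CG32069 scored 0.191 in attp40 against 0.084 in attp2 (limma adjusted p = 0.613).

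**Figure D4:**
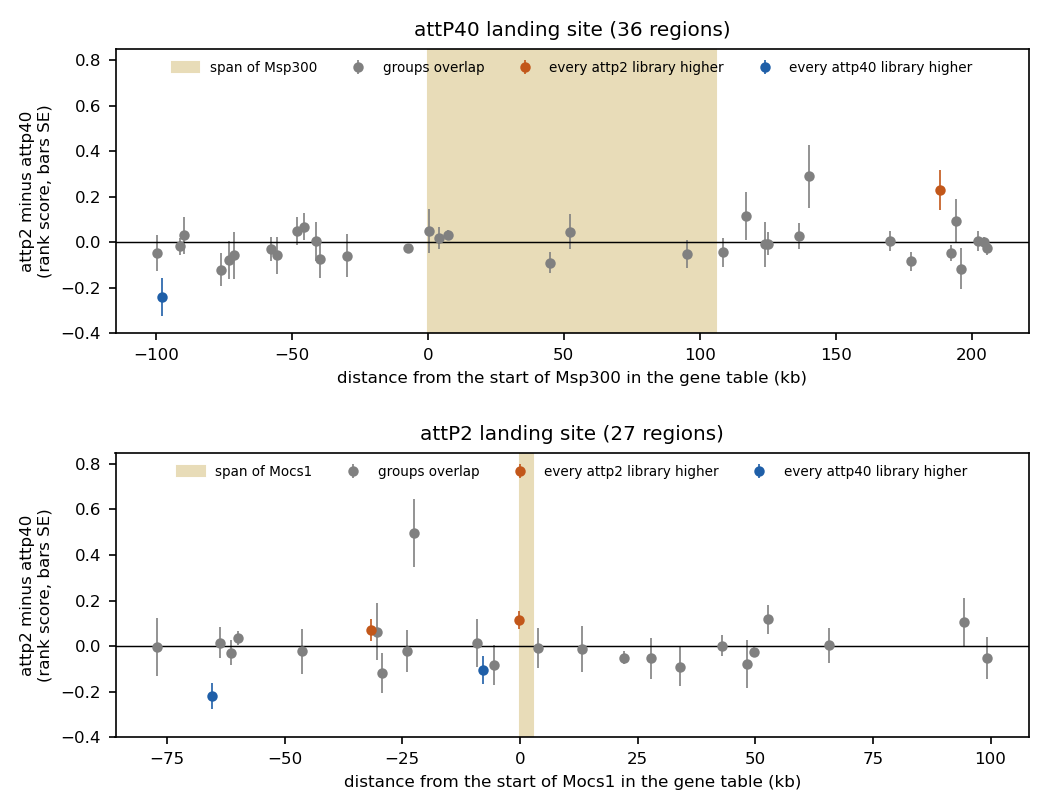
Difference in rank score, attp2 minus attp40 (y axis, bars show the SE from limma), for each region within 100 kb of Msp300 (36 regions, top) and Mocs1 (27 regions, bottom), by distance in kb from the start of the gene in the gene table. Most points lie near 0 at any distance, and 2 regions near Msp300 (5.56%) and 4 near Mocs1 (14.8%) have groups that do not overlap, against 9.57% of all regions.

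Along the genome the differences were spread out. The share of regions whose groups did not overlap was 8.90% to 10.7% on 2L, 2R, 3L, 3R and X and 5.88% on the small chromosome 4. Over 118 bins of 1 Mb it had a median of 9.49%, and its highest value was 18.6%, for 97 regions between 8 and 9 Mb on 2L, where Btk lies. Directions were less even between places. Among 2729 regions in gene bodies, 57 were higher in attp2 (2.09%) and 201 higher in attp40 (7.37%), and among 5272 at gene ends 235 (4.46%) and 276 (5.24%). No test was run on these shares, and the part of the cut of the lists in their directions was not tested.

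Of 21 gene lists, none had a region that passed, and they are described by the share of their regions whose groups did not overlap, beside 9.57% of all regions. The part of the cut of the peak lists in the directions given for them was not tested. Genes of the contractile apparatus had the lowest share among lists of over 10 regions, with 1 of 72 regions of sarcomere and myofibril genes (1.39%), in the body of the tropomyosin gene Tm1 (0.553 in attp2 against 0.631 in attp40). Their median difference was 0.0161. Oxidative phosphorylation had 2 of 41 (4.88%), COX8 and SdhC, both higher in attp40, ion channels and calcium handling 2 of 38 (5.26%), and nuclear envelope and lamina genes 2 of 31 (6.45%). Those last were Ote, an inner membrane protein that binds lamin (0.641 in attp2 against 0.480 in attp40), and klar, a KASH protein that moves nuclei (0.313 against 0.422). Neither passed (adjusted p = 0.473 and 0.698).

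Cytochrome P450 genes, whose products oxidise hormones, fats and toxins, had 8 of 31 regions with groups that did not overlap (25.8%), 2 higher in attp2 and 6 higher in attp40, with a median difference of -0.0453. Cyp6g1 and the region shared by Cyp6a17 and Cyp6a23, a pair of close copies, were the 2 higher in attp2, the latter at 0.187 against 0.039. Beside Cyp18a1, the 6 were at Cyp4p1 (0.353 in attp40 against 0.115 in attp2), Cyp6d2 (0.510 against 0.392), Cyp6d4 (0.884 against 0.801) and 2 neighbouring regions of Cyp4d2. These 2, the first of them shared with Cyp4d14, were counted separately. Both scored 0.289 in attp40, and they scored 0.082 and 0.039 in attp2. The lowest adjusted p in the list was 0.137.

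Cardiac and mesodermal transcription factor genes had 7 of 56 regions (12.5%), 6 of them higher in attp40. The end of svp, a nuclear receptor gene of the ostial cells, scored 0.794 in attp40 and 0.600 in attp2, regions of the GATA factor gene srp 0.874 against 0.746 and 0.220 against 0.041, and regions of zfh1 0.710 against 0.546 and 0.246 against 0.011. At the Hox gene Ubx, an end was higher in attp2 (0.891 against 0.781) and a gene-body region at 0.115 in attp40 scored 0 in attp2. The lowest adjusted p in the list was 0.275. The visible marker gene w, an eye pigment transporter gene, accounted for both of the 2 among 6 regions of the marker genes y, w, v and ry (33.3%), at 0.932 in attp40 against 0.834 in attp2 and 0.505 against 0.311 (adjusted p = 0.509 and 0.607).

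**Figure D5:**
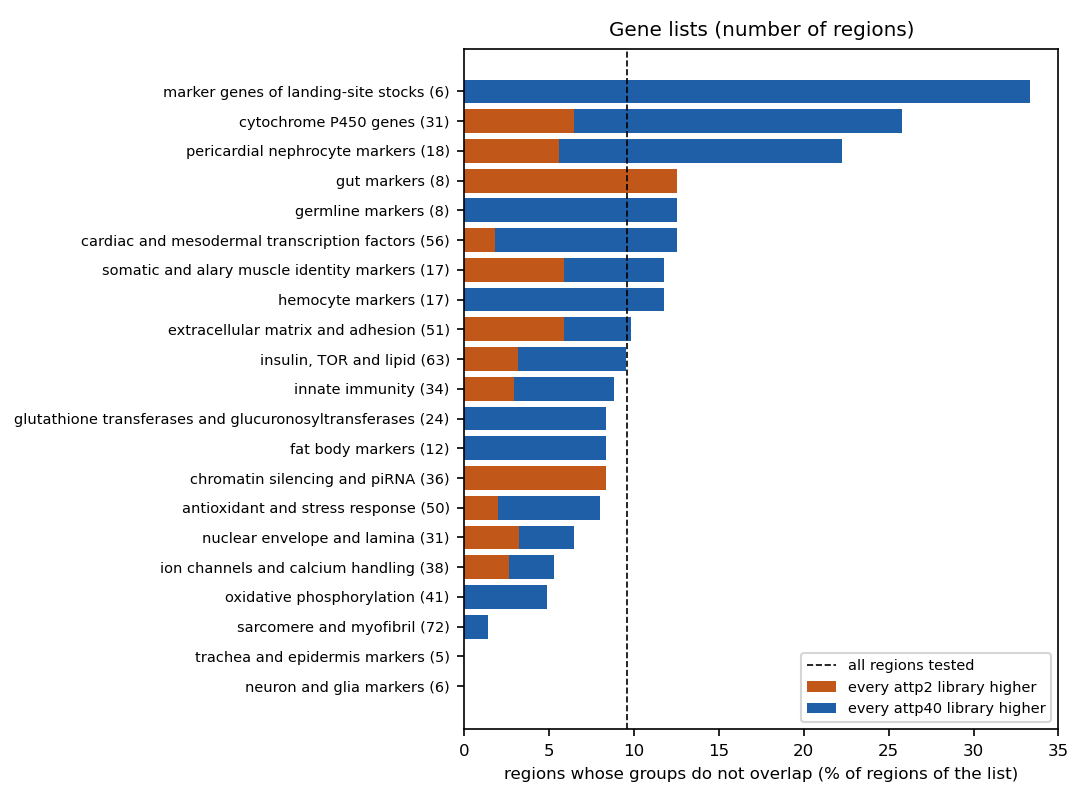
Share of the regions of each of 21 gene lists whose attp2 and attp40 scores do not overlap (x axis, %), split by direction, with the number of regions in brackets and the share over all regions (9.57%) as the dashed line. Sarcomere genes lie at 1.39% and cytochrome P450 genes at 25.8%; no region of any list passed the test.

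Of the markers of 7 other cell types that a heart preparation can hold, those of nephrocytes and fat body lay apart between the strains, as a description with no test. Pericardial nephrocytes filter the hemolymph beside the heart tube. The mean of the best score per gene over 5 nephrocyte markers was 0.329 to 0.367 in attp2 and 0.446 to 0.489 in attp40, without overlap. The nephrin gene sns scored 0.203 ± 0.092 (SD, n = 4) in attp2 and 0.489 ± 0.021 (SD, n = 3) in attp40. The regulator Klf15 scored 0.016 ± 0.032 and 0.245 ± 0.107, with a peak in 1 attp2 library and in all 3 of attp40. The marker kirre scored 0.913 and 0.883, and Cubn had no region among those tested. Over the longer nephrocyte list 4 of 18 regions had groups that did not overlap (22.2%), with sns, pyd and Klf15 higher in attp40 and mgl higher in attp2, and none passed (lowest adjusted p = 0.291). Of 5 fat body markers, 4 had peaks in all 7 libraries and Fbp1 had no region among those tested. The mean over the 5 was 0.374 to 0.446 in attp2 and 0.447 to 0.467 in attp40, without overlap but with a gap of 0.0014. The apolipophorin gene apolpp went the other way, at 0.713 in attp2 against 0.687 in attp40. In the longer fat body list 1 of 12 regions had groups that did not overlap (8.33%). It was the end that Yp3 shares with Rtc1, weak at a mean of 0.063 in attp40 and 0 in attp2 (limma adjusted p = 0.680). Hemocyte markers overlapped, at 0.470 to 0.504 and 0.486 to 0.544, as did cardiomyocyte markers, at 0.558 to 0.628 and 0.561 to 0.590, and those of gut, germline, neurons and body muscle. In the longer hemocyte list 2 of 17 regions had groups that did not overlap (11.8%), both the regions of srp given above and both higher in attp40. Of the 17 differences 13 were below 0 (median -0.0414, lowest limma adjusted p = 0.275), beside 4624 of all 8558 (median -0.00575). A peak of lower rank can come from fewer cells of a type or from less open DNA in each, which cannot be told apart in bulk tissue. The parts of the makeup of the preparations and of the cut of the lists in the differences between the strains were not tested.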

How the data were processed

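Heart nuclei were profiled by ATAC-seq, with 1 peak list per library. The submitters' processing notes name Bowtie2, SAMtools, Picard, MACS2 and build dm6, without versions or settings. In the deposited lists a peak has a fold enrichment over its local background and −log10 p and q values, computed by the authors within each library.

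The 7 lists were cut at the length of the shortest, 8491 peaks ordered by deposited −log10 p, and merged (overlap of at least 1 bp); regions with a peak in at least 3 libraries were kept. The rank score fell from 1 to 0 (no peak). Regions were assigned to protein-coding genes of a RefSeq table (Release 6, the assembly behind dm6) that start or stop within 500 bp (gene ends), then to genes they overlap, then to an end within 5 kb. Coordinates count from base 1. Exons and introns were not told apart. Of 422 listed genes, 416 matched.

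For the scores, limma 3.58.1 ran in R 4.3.3 with a trend on the 7 libraries, Benjamini-Hochberg over all regions, threshold 0.05, and the step was tested on simulated data. Means over a neighbourhood and library measures had exact permutation tests (35 splits, smallest p 0.0286). Named regions were the 12 per direction with the lowest p among non-overlapping ones (the rule ranks by difference among those that pass and fills up by p), all in Msp300 and Mocs1, and the 6 strongest exclusive ones per strain. The test of the control difference against the difference between the knockdown groups, a fit of 16 libraries, was chosen after seeing the data. So were the 400 bp limit on length and the account of regions called in the knockdown libraries. The groups, members and gene lists were chosen with earlier results of these data known. Other steps ran in Python 3.11.15 (scipy 1.17.1, pandas 2.3.3, numpy 2.4.6). Reads were not used, so depth and counting error are unknown. Alternatives were other list lengths, filters, rankings, windows and fits and leaving out each library.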

Additional observations from a re-analysis of the deposited data

Results flagged for a closer look

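Chance puts a sample far from the others in about 1 in 20 groups of this size, and 37 named regions were examined. Of these, 2 had a library that stood apart in attp2, both because a very weak peak was present in replicate 1 and in none of the other 3 libraries: the region with no gene on 2R at 15600239 scored 0.0128 there, and the end of Desat1 0.0237. With the other 3 libraries at 0, a single peak of any height is flagged, so the rate of 1 in 20 does not apply to these cases. At both, all 3 attp40 libraries scored higher, as the selection of the named regions required.

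For 2 named regions the strain difference of the controls differed from the difference between the knockdown groups in a limma test of the 2 differences. At the 458 bp region with no gene on 2R (21848229) the difference between them was 0.553, with attp40 at 0.005 ± 0.009 (SD, n = 3) and means of 0.449 to 0.613 in attp2, LamC RNAi and LamB RNAi. At the unplaced scaffold it was -0.949, with attp2 at 0 in all 4 libraries and the 3 other groups at means of 0.934 to 0.996.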

How the results depend on the processing

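The scaffold region passed under all 18 alternatives to the fit, and CG31808 under 10; CG31808 missed the threshold with lists of 4245 peaks (adjusted p = 0.341), no filter on libraries (0.0864) and the replicate block (0.0568), beside the libraries named above. The count of 2 regions became 1 without the filter, 8 with summit windows, 11 with all 22 libraries, 10 without the trend, and 1 to 6 on leaving out 1 library (6 without attp2 replicate 4). Exclusive regions of attp2 went from 27 to 57 with all deposited peaks and 42 with summit windows, and to 33 to 66 on leaving out 1 library; those of attp40 from 51 to 16 with all deposited peaks and 32 with lists of 4245 peaks, and to 51 to 100 (100 without attp2 replicate 4). Called regions with the same direction in the knockdown libraries went from 1 to 2 when ranked by fold enrichment and to 9 of 11 with all 22 libraries. The count fell to 0 wherever the scaffold was the only call. That was so with no filter, with the replicate block, and without attp2 replicate 2 or 3 or any attp40 library.

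Mean differences around the landing sites changed sign without passing; of the single regions there, 1 of the 27 around Mocs1 passed, in CG43693, without attp2 replicate 4 (adjusted p = 0.0408, and up to 0.676 under the other alternatives), and 0 of the 36 around Msp300. For Msp300 the value was 0.0181 with 50 kb to each side, 0.00838 with 250 kb, 0.0365 with all deposited peaks and -0.0169 to 0.00801 on leaving out 1 library. For Mocs1 it was -0.00237 when ranked by fold enrichment and -0.0158 to 0.0161 on leaving out 1 library. Single regions of Msp300 changed sign in 4 cases: 5100710 at -0.00432 and -0.0190 (without attp2 replicate 1 and attp40 replicate 3; range -0.0190 to 0.147 on leaving out 1 library), 5152349 at -0.0234 (by fold enrichment) and 5195754 at 0.0785 (all deposited peaks). The cause was not tested. For named regions the other alternatives gave 616 values on the same side of the threshold, 17 that newly passed and 8 that no longer did.

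Same-numbered libraries did not deviate together (correlations of -0.0643, -0.0333 and 0.0228), so the numbers were not taken as pairs. With the replicate block 1 region was called, against 6 in the same 6 libraries without it.

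The score has no scale in counts, so a peak just below the 8491 strongest cannot be told from none, and a difference among the strongest peaks moves the score little. With 4 against 3 libraries a difference that misses the threshold does not show that the strains are alike.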
